A study of Mus musculus with 4 samples.

Results

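The genes described here are 9 genes of bile duct epithelium and liver progenitor cells, Cftr, Pkhd1, Ehf, Cd24a, Prom1, Spp1, Epcam, Gpc3 and Ly6d, as they were measured in non-tumorous liver of mice with and without the histone methyltransferase G9a in hepatocytes. A probe set was taken when the array annotation assigned it to 1 of these symbols alone, which gave 15 probe sets of 8 genes among the 34945 probe sets of 18193 genes that name 1 gene. Expression of Spp1 was not analysed here, and only its promoter windows are used below. Keratins were not among the genes, although keratins 7 and 19 appear below among the markers used for comparison.

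The bile ducts of the liver are lined by cholangiocytes, an epithelium that modifies bile by moving chloride, bicarbonate and water. After chronic injury, small ductules and cells with features of both cholangiocytes and hepatocytes can spread from the portal tracts, a change known as the ductular reaction, and several surface proteins of bile duct cells, such as Epcam, Cd24 and prominin-1, are used to isolate such cells. Gpc3 is an oncofetal protein of the hepatocyte lineage, and Ly6d is best known from early B cells and squamous epithelia.

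Total RNA of 2 WT and 2 G9aΔHep mice was hybridised to GeneChip Mouse Genome 430 2.0 arrays, with 1 array a mouse. All were male mice of 30 weeks on a C57BL/6 background that had received DEN, a liver carcinogen, at 25 mg/kg at 15 days of age, and then 22 weekly injections of the hepatotoxin CCl4 at 0.5 ml/kg. WT mice were Alb-Cre; G9a+/+ and G9aΔHep mice, labelled G9aKO, were Alb-Cre; G9aflox/flox, so both groups carried the Cre transgene and both were treated. The albumin promoter drives Cre in hepatocytes. The paper attributes the G9a protein left in whole G9aΔHep liver, with hedging, to cells other than hepatocytes. Whether bile duct cells kept G9a was not measured here. The values are MAS5 signals, background-corrected intensities on a linear scale, each with a call of Present, Marginal or Absent. Probe set names ending in _a_at mark probes shared by transcripts of 1 gene, and those ending in _s_at or _x_at probes that can also match other sequences. With 2 arrays a group, the small number of arrays limits the precision of every value, and an exact two-sided permutation test could not give a p below 0.33.

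Detection was alike on the 4 arrays. Between 41.3% and 43.9% of probe sets were called Present, and the 95% quantile of signals called Absent was 170.5 to 181.1, a level that is used below as a guide to what background can reach. At the detected probe set of Ehmt2, the gene of G9a, WT signals were 640.4 and 492.5, both Present. G9aΔHep signals were 174.1 and 163.7, both Absent (at least 3.33-fold higher in WT, log2 difference -1.73). It met the requirement of 2 Present arrays only through WT, a selection that favours higher signals there, so no test is given for it. Whether this probe set lies within the deleted exons was not determined, so that it checks the labels only if it does. Of the hepatocyte markers, 9 of the 9 genes with a probe set were detected.

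Among the 5 of these genes that were detected, Pkhd1 and Cd24a had the largest genotype differences, with signals 3.90-fold and, at the brightest probe set, 3.27-fold higher in G9aΔHep liver. Epcam was Present on a G9aΔHep array at each of its probe sets and on no WT array, Prom1 and Ly6d were higher by smaller amounts, and Gpc3 overlapped between genotypes. None of the tested differences passed the threshold across all probe sets. Of the 15 probe sets, 7 of 5 genes were Present on at least 2 arrays and were tested (Cd24a at 3 probe sets, Pkhd1, Prom1, Gpc3 and Ly6d), and 0 of 7 had an adjusted p under 0.05 by limma with Benjamini-Hochberg adjustment, against 0.233% of all 17158 tested probe sets called higher and 0.0466% lower, 0.28% in all. At an unadjusted p under 0.05, 5 of 7 were higher and 0 lower, where the share of all tested probe sets was 5.36% higher and 3.95% lower. Those 5 were the 3 probe sets of Cd24a and those of Pkhd1 and Prom1, and so do not stand for 5 genes. Because the tissue was whole liver, more cells of a type and more RNA per cell cannot be told apart.

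**Figure D1:**
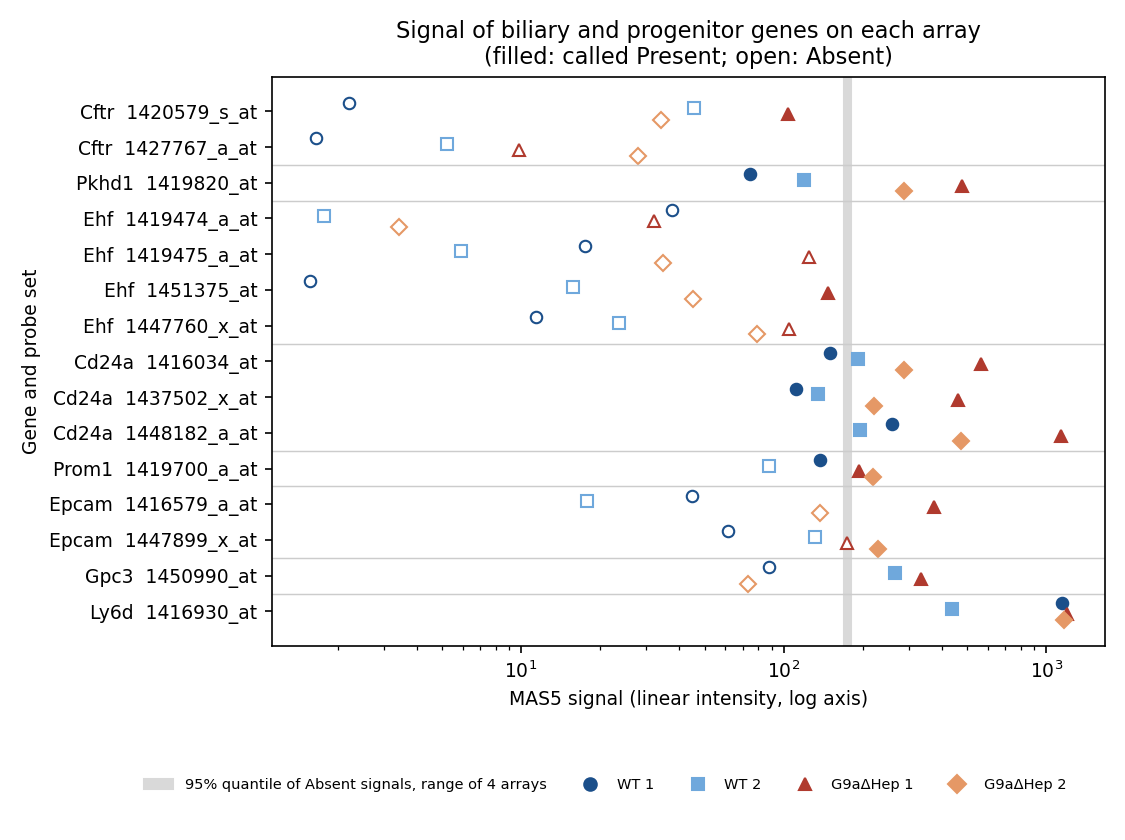
MAS5 signal (linear intensity, log axis) of the 15 probe sets of 8 biliary and progenitor genes on each of the 4 arrays; filled symbols were called Present, open symbols Absent, and the grey band spans the 95% quantiles of Absent signals (170.5 to 181.1). The G9aΔHep symbols lie to the right of the WT symbols at 12 of 15 probe sets, and all signals of Cftr and Ehf lie left of the band.

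The promoters of these genes, as RefSeq gives them, are shown before the values of each gene, so that genes with larger and smaller differences can be set beside each other. Windows from 250 bases before to 50 bases after a start were given for 6 of the 9 genes, in 8 windows on GRCm38.p6. The following 4 are the bases before the annotated gene of Pkhd1 (chr1:20618083-20618307, minus strand), Epcam (chr17:87635729-87635978, plus strand), Cftr (chr6:18170437-18170686, plus strand) and Gpc3 (chrX:52613975-52614224, minus strand), chosen to set the member with the largest difference among those detected beside a surface marker, the chloride channel and the gene whose genotypes overlapped. Each is written 5′ to 3′ on the strand of its gene, and capitals mark the ETS letters, which of these 4 stretches only Cftr holds.
Pkhd1: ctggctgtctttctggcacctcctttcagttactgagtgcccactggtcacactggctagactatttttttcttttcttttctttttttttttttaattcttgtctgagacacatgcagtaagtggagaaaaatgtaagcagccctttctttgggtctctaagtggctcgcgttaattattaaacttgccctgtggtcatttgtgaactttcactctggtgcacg
Epcam: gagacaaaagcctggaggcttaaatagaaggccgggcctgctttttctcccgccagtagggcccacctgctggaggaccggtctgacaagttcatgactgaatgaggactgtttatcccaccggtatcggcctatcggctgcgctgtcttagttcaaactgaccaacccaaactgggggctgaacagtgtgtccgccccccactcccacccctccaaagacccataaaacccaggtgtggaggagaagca
Cftr: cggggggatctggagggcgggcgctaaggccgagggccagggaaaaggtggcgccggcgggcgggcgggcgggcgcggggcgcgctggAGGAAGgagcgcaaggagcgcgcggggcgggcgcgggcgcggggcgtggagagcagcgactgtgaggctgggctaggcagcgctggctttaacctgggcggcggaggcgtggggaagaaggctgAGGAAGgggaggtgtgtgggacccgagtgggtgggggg
Gpc3: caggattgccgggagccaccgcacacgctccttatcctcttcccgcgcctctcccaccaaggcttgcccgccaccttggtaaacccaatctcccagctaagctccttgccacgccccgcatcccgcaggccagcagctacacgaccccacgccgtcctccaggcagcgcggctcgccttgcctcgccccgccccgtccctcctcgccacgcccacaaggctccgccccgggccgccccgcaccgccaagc

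These promoters differ in base composition, with a G and C content of 41.3% in Pkhd1, 56.4% in Epcam, 71.6% in Gpc3 and 76.4% in Cftr. Letters of known binding motifs were searched on both strands of the whole windows.

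AGGAAG, letters read by ETS factors, the family of Ehf, occurred in 5 of the 8 windows and in 35.4% of all 32851 windows. Those windows were of Cftr, Pkhd1, Prom1 and Spp1, with more than 1 of Spp1, whose expression was not analysed. In the Cftr window AGGAAG started 162 and 38 bases before the start, and in that of Pkhd1 it lay after the start. TGGGAA, read by the Notch effector RBPJ, was found in 1 of the 8 windows, of Prom1, against 25.6% of all. GGAATG of the TEAD factors (14.7% of all windows) and AACAAT of the SOX factors (10.7%) were in 0 of 8.

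Pkhd1 (chromosome 1, 20057779 to 20618082 on GRCm38.p6) encodes fibrocystin, a membrane protein of primary cilia in bile duct and kidney tubule cells, whose loss causes autosomal recessive polycystic kidney disease with malformed bile ducts. Its probe set, 1419820_at, was Present on all 4 arrays and read 74.8 and 120.0 in the WT mice against 477.8 and 286.2 in the G9aΔHep mice. Both G9aΔHep arrays were above both WT arrays, the lower of them by 2.38-fold over the higher WT array, and both WT signals lay within the range that Absent probe sets reach. Means were 97.4 ± 31.99 (SD, n = 2) for WT against 382 ± 135.5 (SD, n = 2) for G9aΔHep liver. The log2 difference was 1.96 (SE 0.38, limma adjusted p = 0.155), the 98th highest difference of 17158 tested. Leaving out each array in turn gave log2 differences of 1.60 to 2.33.

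Cd24a (chromosome 10, 43579169 to 43584265) encodes the small, heavily glycosylated, lipid-anchored surface protein Cd24, which marks bile duct and progenitor cells in liver and also occurs on immature B cells and neutrophils. It was Present on all 4 arrays at each of 3 probe sets. At the brightest, 1448182_a_at, WT arrays read 258.9 and 194.6 and G9aΔHep arrays 1137.1 and 474.4. At 1416034_at they read 150.7 and 192.6 in WT, and 564.5 and 287.3 in G9aΔHep liver. At 1437502_x_at they read 111.4 and 134.9 in WT, and 459.9 and 221.6 in G9aΔHep liver. The 3 probe sets gave the same order of the G9aΔHep arrays, with the first 1.97-fold to 2.40-fold above the second, and no overlap with WT.

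The log2 difference of Cd24a was 1.71 (SE 0.41, limma adjusted p = 0.264) at 1448182_a_at. It was 1.38 (SE 0.39, adjusted p = 0.359) and 1.24 (SE 0.36, adjusted p = 0.374) at the other probe sets, which read the same gene and are not replicates of the comparison. The first G9aΔHep array carried more of the difference than the second. Without the second G9aΔHep array, the log2 difference at 1448182_a_at was 2.34 with an adjusted p of 0.0239 by limma, where the lone array is assumed to vary like the WT arrays. Without the first, the differences were 1.08 at 1448182_a_at, 0.85 at 1437502_x_at and 0.75 at 1416034_at.

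Prom1 (chromosome 5, 43993621 to 44102047) encodes prominin-1 or Cd133, a membrane protein of epithelial protrusions that is used to sort liver progenitor cells. Its probe set, 1419700_a_at, read 138.1 and 87.9 in WT, the second of them called Absent, against 194.4 and 218.2 in G9aΔHep liver. The groups did not overlap, and the G9aΔHep arrays differed less from each other than the WT arrays did. Means were 113 ± 35.5 (SD, n = 2) for WT against 206.3 ± 16.9 (SD, n = 2) for G9aΔHep liver, a log2 difference of 0.90 (SE 0.34, limma adjusted p = 0.492). Unlike Pkhd1 and Cd24a, it was not highest on the first G9aΔHep array.

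Epcam (chromosome 17, 87635979 to 87651127) encodes an adhesion molecule of epithelia that bile duct cells carry and mature hepatocytes lack. Neither of its probe sets was Present on 2 arrays, so neither was tested. At 1416579_a_at the WT arrays read 44.6 and 17.8, both Absent, and the G9aΔHep arrays 374.1, Present, and 138.0, Absent. Only the first G9aΔHep array was above the range of Absent signals. At 1447899_x_at the WT arrays read 61.6 and 131.3, both Absent, and the G9aΔHep arrays 175.0, Absent, and 228.1, Present. Here the second G9aΔHep array was the higher, so that the probe sets of Epcam disagreed on which mouse had more.

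Cftr (chromosome 6, 18170687 to 18322770) encodes the chloride channel of the apical membrane through which cholangiocytes start the secretion of bicarbonate. At 1420579_s_at the signals were 2.21 and 45.6 in WT, both Absent, and 103.8, Present, and 34.1, Absent, in G9aΔHep liver. The genotypes overlapped, and only the first G9aΔHep array was called Present. At 1427767_a_at all 4 arrays were Absent, with 1.65 and 5.21 in WT and 9.86 and 27.9 in G9aΔHep liver, below the median of Absent signals on each array. Cftr was thus not above background at that probe set.

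Ehf (chromosome 2, 103263431 to 103303275) encodes an ETS transcription factor found in epithelia. Of its 4 probe sets, 3 were Absent on all arrays. At 1451375_at, the exception, the signals were 1.57 and 15.8 in WT, both Absent, and 147.4, Present, and 45.3, Absent, in G9aΔHep liver. The signals were 11.4 and 23.5 against 104.7 and 79.0 at 1447760_x_at, and 17.5 and 5.91 against 124.8 and 34.6 at 1419475_a_at, again with the first G9aΔHep array highest. At 1419474_a_at they were 37.5 and 1.77 in WT and 32.2 and 3.42 in G9aΔHep liver, which overlapped. All signals of Cftr and Ehf were below the 95% quantile of Absent signals of their array.

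Across the 8 probe sets of Epcam, Cftr and Ehf, 2 of 32 signals were above that quantile, both of Epcam. When probe sets were fitted with no filter on detection, their adjusted p was 0.436 to 0.981. The size of the log2 difference at such signals depended on how low values were handled. At 1451375_at of Ehf it was 4.04 as measured, 2.08 after adding 16 to each signal and 1.35 after raising signals below 32 to 32.

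Gpc3 (chromosome X, 52272426 to 52613974) encodes glypican-3, a heparan sulfate proteoglycan of the cell surface that is made in fetal liver and in many hepatocellular carcinomas. At 1450990_at the signals were 87.8, Absent, and 264.9, Present, in WT, and 333.4, Present, and 73.0, Absent, in G9aΔHep liver. Each genotype held 1 mouse with a detected signal and 1 without, and the G9aΔHep mice differed 4.57-fold from each other. The log2 difference was 0.03 (SE 0.80, limma adjusted p = 0.992), and its sign turned under quantile normalization (-0.086) and under median centring (-0.022).

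Ly6d (chromosome 15, 74762056 to 74763567) encodes a lipid-anchored surface protein of the Ly6 family. At 1416930_at it was Present on all arrays, with 1145.1 and 438.0 in WT and 1199.3 and 1168.3 in G9aΔHep liver. One WT mouse was at the level of both G9aΔHep mice, and the lower G9aΔHep array was 1.02-fold above the higher WT array. The log2 difference was 0.74 (SE 0.41, limma adjusted p = 0.632) and 0.05 without the second WT array, on which its size rests.

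**Figure D2:**
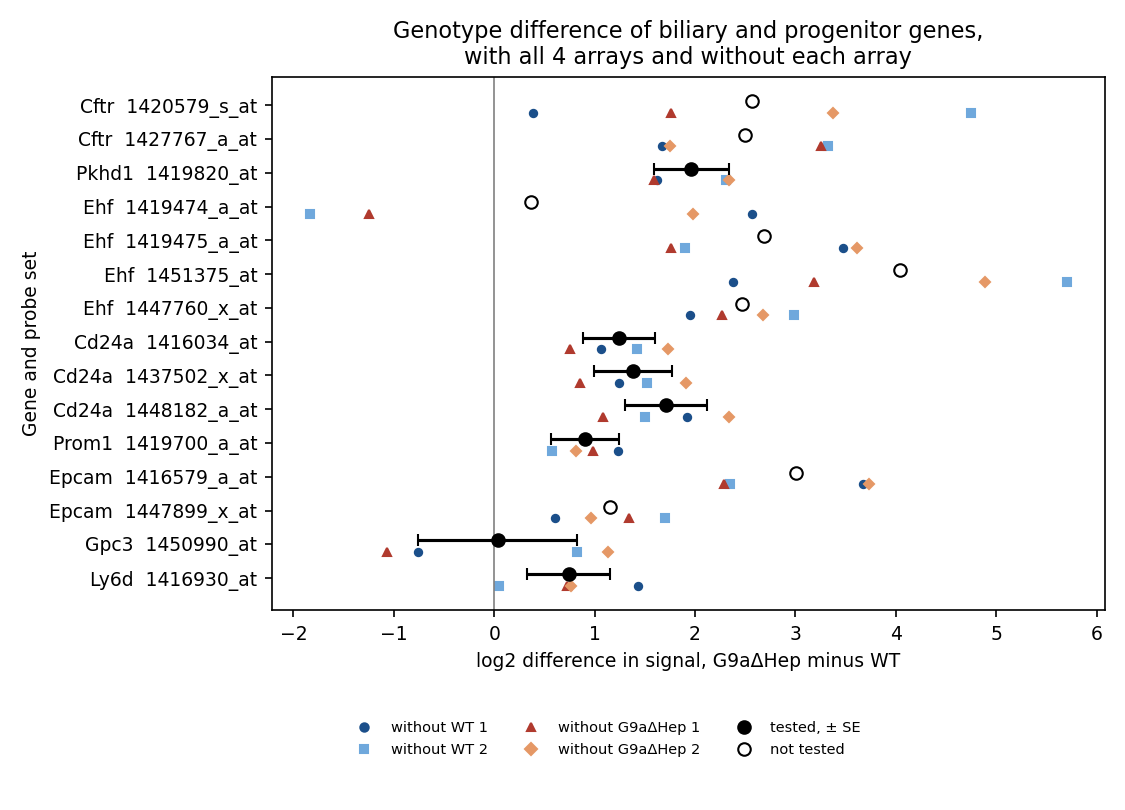
Log2 difference in signal, G9aΔHep minus WT, at the 15 probe sets of the biliary and progenitor genes; black points with bars are tested probe sets ± SE from limma, open circles are probe sets not tested, and coloured symbols give the difference without each array. The coloured symbols stay right of 0 at each probe set of Pkhd1, Cd24a, Prom1, Epcam, Cftr and Ly6d, and lie on both sides of 0 for Gpc3 and for 1 probe set of Ehf.

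As a group, both G9aΔHep arrays were above both WT arrays at 12 of 15 probe sets, while 19.9% of all probe sets naming 1 gene were higher in this way and 17.5% lower. Among the tested probe sets it was 6 of 7, where 21.7% of all were higher and 19.4% lower. No probe set was lower without overlap. The log2 difference exceeded 1 at 11 of 15 probe sets, against 10.4% of all, and 7 of those 11 belonged to Cftr, Ehf and Epcam, whose signals were mostly Absent. The median log2 difference of the 5 detected genes was 0.90, and that of all 10350 detected genes 0.02. Cd24a, Ehf and Epcam each had more than 1 of the 12 probe sets, which therefore do not stand for 12 genes. Because the genes were chosen with earlier results of these data known, these shares and medians are a description and not a test.

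The mice of the G9aΔHep group were not alike in these genes. The first G9aΔHep array had the highest signal of the 4 at 11 of 15 probe sets, and it was above the second at 12. Relative to each gene's mean over the 4 arrays, the median log2 level of the 5 detected genes was 1.11 on the first G9aΔHep array and 0.35 on the second, and -0.65 and -0.78 on the WT arrays. The second G9aΔHep array thus stood above WT by less than the first did.

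Other markers of bile duct cells were compared in the same mice. Of 16 genes, 13 had a probe set and 7 were detected, with a median log2 difference of 0.70, while 0 of their 11 probe sets passed the test. The signal summed over the 13 genes, detected or not, was 5405 and 4372 in WT, and 7503 and 5488 in G9aΔHep liver. Relative to each gene's mean over the 4 arrays, the median log2 level of the 7 was -0.007 and -0.445 in WT. It was 0.725 and -0.045 in G9aΔHep liver, so that the second G9aΔHep array lay below the first WT array. Of the 7, 2 were higher without overlap, beside 22.3% of all detected genes. Dcdc2a, a protein of the cilia of bile duct cells, read 83.3 and 112.1 in WT, both Absent, against 189.2 and 201.6, both Present. Sox9, the transcription factor that marks bile duct fate, read 115.8 and 99.6 in WT, both Absent, against 173.3 and 156.2, both Present, at 1424950_at. At these probe sets both genes passed the filter on detection only through the G9aΔHep arrays, a selection that favours higher signals there, so no test is given for them. At its brightest probe set Sox9 differed by 0.71 (limma adjusted p = 0.677). Sctr, Muc1, Elf3 and Cldn4 were Present on no array, and Krt7 and Krt19 were not Present on 2, so that 6 defining markers of bile duct cells missed the detection filter in whole liver.

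Markers of other cell types that such a sample can hold also differed between the arrays. The signal summed over 10 macrophage markers was 28383 and 42408 in WT, and 62839 and 40313 in G9aΔHep liver, with 3 of 9 detected genes higher without overlap and Trem2 Present on no array. That of 10 stellate cell and fibroblast markers was 10397 and 15064 in WT, and 20163 and 12622 in G9aΔHep liver, with 6 of 9 detected genes higher without overlap, a median log2 difference of 0.55 and Des Present on no array. Both sums were highest on the first G9aΔHep array and overlapped between the genotypes. Genes that did not overlap and were higher made up 22.3% of all detected genes.

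Cd24 and Ly6d also occur on cells of the immune system. The summed signal of 7 B cell markers was 999.8 and 940.9 in WT, and 2389 and 1017 in G9aΔHep liver. Cd79a, Pax5, Vpreb3 and Blk, among the defining genes of B cells, were Present on no array. Ighm, the heavy chain of IgM, read 121.8 and 120.1 in WT against 525.5 and 229.6 at 1425385_a_at, without overlap (log2 difference 1.52, SE 0.41, limma adjusted p = 0.331). At the brightest probe sets the log2 difference was 0.965 for Ighm, -0.026 for Ms4a1 and -0.223 for Cd79b. The list median was -0.026, and 0 of the 3 detected genes were without overlap at these probe sets. The 7 neutrophil markers summed to 1420 and 1030 in WT, and 2650 and 514 in G9aΔHep liver, with S100a8 and S100a9 highest on the first G9aΔHep array and lowest on the second. The T and NK cell, erythroid, sinusoidal endothelial and hepatocyte lists had median log2 differences of -0.33, -0.10, -0.05 and -0.03. Mesothelial markers had a median of -0.34, and 0 pancreatic acinar genes were detected. The part of any of these cells in the values of the biliary genes was not tested.

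**Figure D3:**
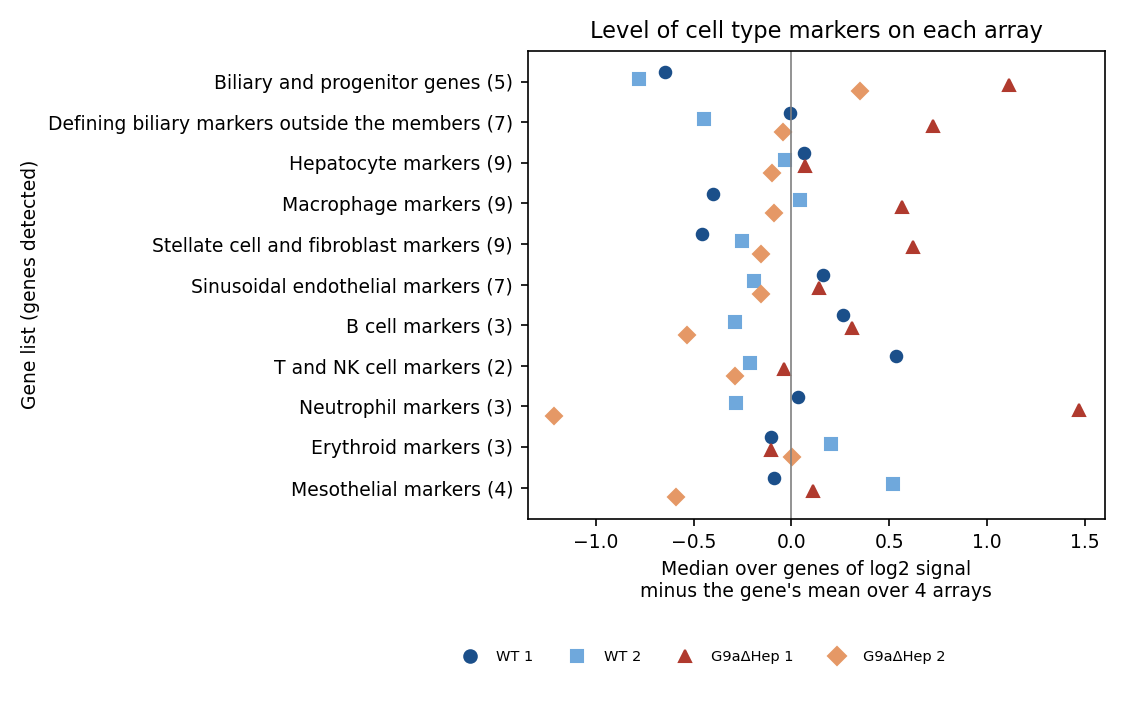
Level of cell type markers on each of the 4 arrays, as the median over the detected genes of a list of the log2 signal minus each gene's mean over the arrays; the number of genes is in brackets. For the 5 biliary and progenitor genes the G9aΔHep arrays lie at 1.11 and 0.35 and the WT arrays at -0.65 and -0.78, whereas the hepatocyte markers lie between -0.10 and 0.07 on all arrays.

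Genes that work with the biliary genes were read from 10 pathway lists. Of their 151 genes, 90 were detected, at 149 probe sets, and 0 probe sets passed the test in either direction. At an unadjusted p under 0.05, 14 were higher and 1 lower by limma, beside 5.36% and 3.95% of all tested probe sets. Among the 14 were probe sets of Dcdc2a and Mmp7, which passed the filter on detection only through the G9aΔHep arrays. The count therefore gives no test of these lists.

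Cftr works with other transporters of bicarbonate-rich bile. Of the 12 genes of chloride and bicarbonate secretion, 9 were detected, with a median log2 difference of 0.22. Ano1, a calcium-activated chloride channel, read 69.1, Absent, and 90.2, Present, in WT. In G9aΔHep liver it read 177.1, Present, and 192.4, Absent (1.23, SE 0.33, limma adjusted p = 0.345). Adcy6, the adenylyl cyclase of the secretin response, read 715.1 and 846.9 against 1158 and 1109 (0.54, SE 0.17, adjusted p = 0.397). Both were without overlap, and the first G9aΔHep array read 0.921 and 1.04 times the second.

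Pkhd1 encodes a protein of the primary cilium whose loss causes polycystic disease. Of 17 other genes of the primary cilium or of polycystic disease, 9 were detected, with a median log2 difference of 0.18, and Pkd1 was Present on no array. Invs, or inversin, read 47.6 and 78.3 in WT against 112.8 and 168.0 at 1444709_at (1.17, SE 0.45, limma adjusted p = 0.504), whereas its brightest detected probe set differed by 0.01. Bicc1, an RNA-binding protein, read 344.9 and 437.3 against 923.1 and 430.4, and overlapped. The value of Pkhd1, 1.96, was above that of each of the 9.

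Among 15 epithelial transcription factors, the group of Ehf, 7 were detected and their median was 0.29. Sox4 read 273.4 and 261.9 in WT against 988.2 and 381.9 (1.20, SE 0.42, limma adjusted p = 0.465), 2.59-fold higher on the first G9aΔHep array than on the second. Onecut2, a hepatobiliary factor, read 876.5 and 609.1 against 1135 and 1067 (0.59, adjusted p = 0.476) at 1444980_at and differed by 0.29 at its brightest probe set. Elf3, Elf5, Spdef, Etv4, Grhl2 and Ovol1 were Present on no array.

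Of 17 further progenitor genes 10 were detected, with a median of 0.10. Afp, the fetal serum protein alpha-fetoprotein, stood apart from the rest, with 252.4 and 115.6 in WT against 3058 and 1159 in G9aΔHep liver (3.46, SE 0.52, limma adjusted p = 0.0857). Lgr5, a receptor for R-spondins, read 259.0 and 243.7 against 313.9 and 356.3 (0.41, adjusted p = 0.616). Cd44, the hyaluronan receptor, overlapped between the genotypes.

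The 12 partners of Epcam and Cd24a, such as claudins and tetraspanins, had 7 detected genes and a median of 0.23. Selp, the P-selectin that binds Cd24, read 184.7 and 148.4 in WT against 133.4 and 84.0 (-0.65, SE 0.36, limma adjusted p = 0.638). Tspan8 read 374.2 and 201.9 against 706.1 and 314.6 and overlapped.

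Of 14 receptors and proteases of osteopontin, the product of Spp1, 11 were detected, with a median of 0.22. Mmp7, or matrilysin, which cleaves osteopontin and is made by injured bile duct cells, read 143.3 and 74.6 in WT, both Absent, against 1248 and 461.6, both Present, at least 7.34-fold higher. It too passed the filter only through the G9aΔHep arrays, and no test is given for it. Itgb5, an integrin subunit, read 713.0 and 658.3 against 1064 and 755.8 (0.39, adjusted p = 0.621) at 1417534_at and differed by 0.22 at its brightest probe set.

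Gpc3 has 5 relatives among the 15 genes of glypicans, syndecans and heparan sulfate enzymes, of which 12 were detected with a median of 0.02. Gpc1 read 241.5 and 252.9 in WT, without overlap, against 78.5 and 90.0 (-1.56, SE 0.29, limma adjusted p = 0.155). Cd81, a tetraspanin that binds Gpc3, read 12776 and 12005 against 16333 and 14696 (0.32, adjusted p = 0.444). Sulf2, a sulfatase of heparan sulfate, differed by 0.44 (adjusted p = 0.446).

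Of the 18 genes of the Ly6 family other than Ly6d, 3 were detected, with a median of 0.43. Ly6e read 199.1 and 138.9 in WT, both Absent, against 337.9 and 224.7, both Present, at 1439773_at. That probe set passed the filter on detection only through the G9aΔHep arrays, and no test is given for it. At its brightest probe set Ly6e differed by 0.62, Gpihbp1 differed by -0.19 and Ly6g6c by 0.43.

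The Notch and Hippo pathways direct bile duct fate. Of 18 Notch genes 11 were detected, with a median of 0.25 and 6 higher without overlap, as were 22.3% of all detected genes (19.3% were lower). Hes1, the target of Notch, read 283.8 and 319.4 in WT against 518.8 and 395.4 (0.59, SE 0.23, limma adjusted p = 0.512), Notch1 differed by 0.39 and Maml1, a coactivator, by -0.64 at 1 of its probe sets and -0.07 at its brightest. Of 18 Hippo and YAP genes 14 were detected, with a median of 0.18. Wwtr1, the YAP partner TAZ, read 135.4 and 151.7 against 298.3 and 252.3 at 1437155_a_at (0.94, SE 0.26, adjusted p = 0.352) and differed by 0.39 at its brightest probe set. Lats2, a kinase that holds YAP back, differed by -0.55 at 1 of its probe sets and by 0.08 at its brightest, and Ajuba by 0.45.

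**Figure D4:**
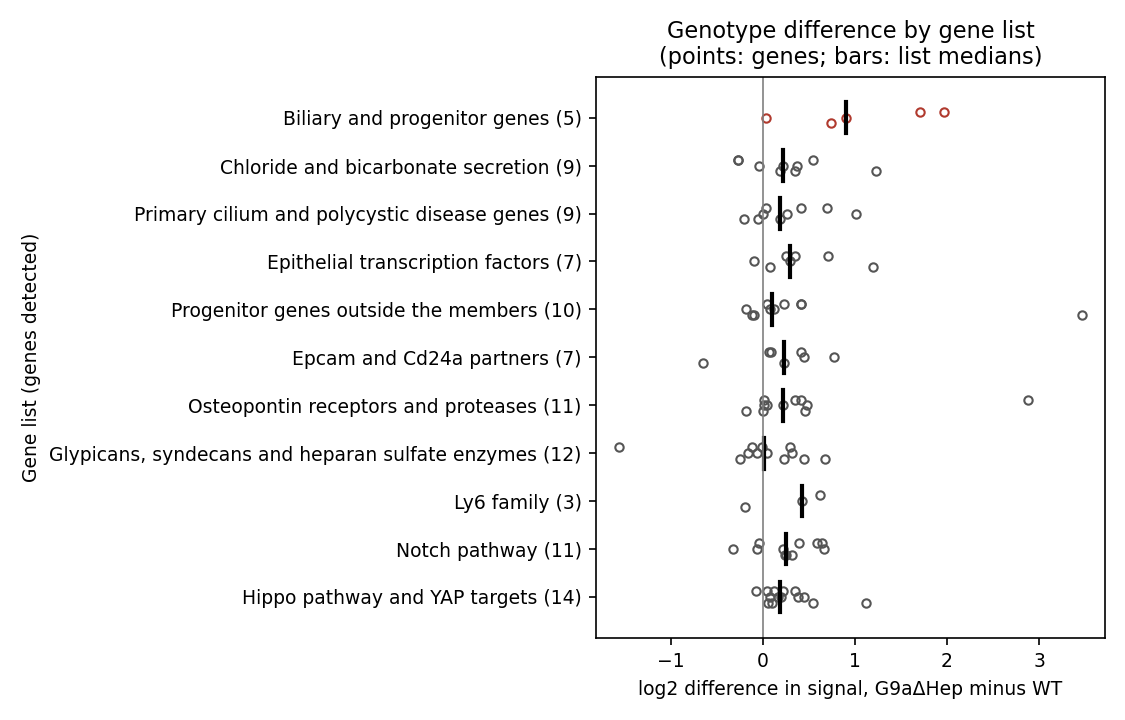
Log2 difference in signal, G9aΔHep minus WT, of each detected gene of the biliary and progenitor genes and of 10 pathway lists, with the number of genes in brackets; points are genes at their brightest detected probe set and bars are list medians. The median of the biliary and progenitor genes is 0.90 and those of the other lists are 0.02 to 0.43, with Afp (3.46), Mmp7 (2.88) and Gpc1 (-1.56) far from their lists.

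Pkhd1 had the largest log2 difference of the 5 detected biliary and progenitor genes, and the genes with the most similar signals over the 4 arrays were sought among 10349 others, by the root mean square difference of mean-centred log2 signals. The closest were Gna14, a G protein subunit (0.128), Itgb8, an integrin subunit that activates TGF-beta (0.211), Btg2, an antiproliferative gene (0.215), Wdsub1 (0.222) and Bex4 (0.238). Gna14 read 35.0 and 57.9 in WT, both Absent, against 246.7 and 168.6 in G9aΔHep liver, both Present. Gna14 and Bex4 passed the filter on detection only through the G9aΔHep arrays. Itgb8 read 38.4 and 72.0 against 260.9 and 115.6. Cd24a was the 59th closest to Pkhd1 (0.447), Prom1 the 735th, Ly6d the 3300th and Gpc3 the 7834th. The measure rests on 4 arrays, 2 of each genotype.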

How the data were processed

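Gene expression was measured in 4 livers, 2 WT and 2 G9aΔHep, which were assigned to genotypes by the submitters' labels. The submitters' processing notes name MAS5, with a version not given in the sources used here. Signals were deposited as linear intensities, from which the authors' software had taken background, and which it had scaled to the same trimmed mean on each array (500.0, with 2% trimmed), and the deposited detection p-value gives each probe set its call. Values are therefore relative to the overall signal of each array. Signals in the series matrix differed from those of the single arrays by at most 5e-06 of their value.

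Genes were named from the array annotation, in which 34945 of 45101 probe sets named 1 gene. The others, 64 controls among them, were not used. Log2 signals, with no pseudocount, were fitted for the 17158 probe sets Present on at least 2 arrays by limma 3.58.1 in R 4.3.3 (lmFit and eBayes, with a trend of variance on mean), with 2 residual and 4.6 prior degrees of freedom, Benjamini-Hochberg adjustment over all of them and a threshold of 0.05. The fit was tested on simulated data. With each mouse on 1 array, biological and array-to-array spread were measured together. No batch or date is given in the sources used here.

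The least fold difference of a probe set Absent on both arrays of a genotype was computed against the higher of its own signal and the lowest Present signal of each array. A gene in a list was represented by its brightest probe set Present on at least 2 arrays, and summed signals take the brightest probe set of each gene that has one. The text names the 9 genes at each probe set, Ehmt2, up to 3 of each other list with the smallest p, as none of those genes passed, and the 5 genes most similar to the one of the 9 with the largest difference among those detected. One of the motifs searched for is not reported here. Genes and lists were chosen with earlier results of these data known.

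Alternatives were 1 probe set a gene, no detection filter, Present on all 4 arrays, quantile normalization, median centring, a floor of 32, a pseudocount of 16, no trend, the methods' t-test, the series matrix and leaving out each array.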

Additional observations from a re-analysis of the deposited data

How the results depend on the processing

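No paired analysis was possible because the labels give no replicate numbers that the genotypes share. None of the 7 tested probe sets of the biliary and progenitor genes passed the threshold under any alternative that kept all 4 arrays. Over all probe sets, 40 were higher and 8 lower, and limma without a trend and the methods' t-test each called 0 (970 and 513, and 685 and 667, at an unadjusted p under 0.05). With no detection filter 25 were higher and 5 lower, with probe sets Present on all 4 arrays 27 and 8, and without each array 17 to 62 and 0 to 22. The size of some log2 differences depended on which G9aΔHep array was left out. Without the second and without the first, it was 2.34 and 1.08 for Cd24a at 1448182_a_at. For Afp it was 4.16 and 2.76, and for Sox4 1.885 and 0.51. For Mmp7, which passed the filter on detection only through the G9aΔHep arrays, it was 3.59 and 2.16. Non-overlapping probe sets of the biliary genes numbered 11 to 12 higher and 0 lower under the alternatives that kept all 4 arrays. Without each array they were 12 to 14 higher and 0 to 1 lower. Groups of 1 and 2 arrays are less likely to overlap, and the share over all probe sets is not given for these settings, so these counts do not show stability. The median log2 difference of the biliary genes, 0.90, was 1.43 with no detection filter, 1.71 over genes Present on all 4 arrays, and 0.83 to 1.43 without each array. Signs turned for Gpc3 (-0.086 under quantile normalization, -0.022 under median centring, -1.06 to 1.13 without each array) and S100a8 (-0.028, -0.016, and -1.43 to 1.51). At 1419474_a_at of Ehf, Absent on all arrays and not tested, the sign turned as well. The log2 difference there was 0.37 as measured, -0.11 with the floor of 32 and -0.011 with the pseudocount of 16. Without each array it was -1.84 to 2.57.

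Without each array, log2 differences also changed sign for Ms4a1 (-0.25 to 2.66), Cd79b (-0.65 to 0.20), Cd8a (-1.05 to 0.12), Gzma (-0.56 to 0.19), Ngp (-0.90 to 0.13), S100a9 (-1.09 to 1.59), Alas2 (-0.58 to 0.018), Klf1 (-0.25 to 0.055) and Epor (-0.48 to 0.82). The log2 difference of Ehmt2 was -1.83 under quantile normalization and -1.79 under median centring. The cause of these changes was not tested. Signals of Cftr and Ehf near background limit what their differences can show.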
